A study of Homo sapiens with 32 samples.

Results

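The extracellular matrix genes described here are TGFBI, COL15A1, SPP1, VCAN, THBS1, FN1, SPARC and LTBP1, which encode secreted proteins of the matrix or of its attachment to cells. Every probe that the platform annotation gave to 1 of these 8 genes was taken, which made 12 of the 24518 probes measured. The genes were chosen by what earlier results of the same arrays had shown, in which TGFBI and COL15A1 had stood out by their differences between treatments. The members' differences between treatments are therefore a description, and nothing is read from how many of them passed a test.

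The study asked what happens in monocytes when the TGFβ pathway and the TLR4 pathway are switched on together. THP-1 cells, an established human monocytic leukaemia line, were kept overnight in medium with little serum and then treated for 24 h, and total RNA was hybridised to 32 Illumina HumanRef-8 arrays. There were 8 arrays each for LPS at 100 ng/ml with TGFβ1 at 1 ng/ml (LPS+TGFβ1), TGFβ1 alone at 1 ng/ml, LPS alone at 100 ng/ml, and PBS as the control. All groups share the low serum and the line, which is leukaemic and stands in for primary monocytes only in part.

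The extracellular matrix is a meshwork of collagens, glycoproteins and proteoglycans to which cells attach through integrins and CD44. TGFβ1 is best known as an inducer of matrix genes in fibroblasts, through receptor kinases that activate SMAD proteins, and part of the TGFβ held in tissue is stored in the matrix in a latent form. LPS, a component of the outer membrane of gram-negative bacteria, acts through TLR4 and turns on NF-κB and AP-1 in monocytes, which can themselves secrete matrix proteins such as osteopontin, versican, thrombospondin-1 and the TGFβ-induced protein.

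The labels do not say whether the 8 arrays of a treatment are separate cultures. The p-values therefore rest on the spread between arrays alone, and that spread may be technical. Each array had 12172 to 13537 probes above background. The arrays lay on 4 chips with 2 arrays of each treatment on each. Within every treatment the arrays formed 2 sets on the leading principal component of the residuals. This component was computed without the 12 probes and held 42.3% of the residual variance. Set 1 held 14 arrays and set 2 held 18. LPS and LPS+TGFβ1 each had 4 arrays in set 1 and 4 in set 2, whereas TGFβ1 and PBS each had 3 and 5. The sets were therefore not balanced between treatments with and without LPS, and the main fit took no account of them. Chip 2 lay wholly in set 1 and chip 3 wholly in set 2, so values by set are given beside the results and the difference between these chips was tested. By the labels, the PBS, LPS and TGFβ1 arrays held the same positions on every chip. The position labels of 4 LPS+TGFβ1 arrays are those of TGFβ1 arrays on the same chip, so the true place of these arrays is not known. The effects of position and treatment cannot be told apart. Of the monocytic markers, 11 of 12 were measured and 9 were above background on all 32 arrays. Their levels differed between treatments. CD14 averaged 308 in PBS and 11314 in LPS, and LYZ averaged 423 in PBS and 156 in LPS. The summed intensity of the measured monocytic markers was 31469 to 34534 in LPS+TGFβ1 and 12070 to 18382 in PBS, and its part in the results was not tested. Of the fibroblast markers, 5 of 8 were above background on no array, among them COL1A1, COL1A2 and COL3A1. The others were PDGFRA, above background on all 32 arrays, PDGFRB on 21 and DCN on 16. Mean intensities were 266 in LPS+TGFβ1 and 126 in PBS for PDGFRA, and for DCN 226 in LPS and 24.5 in PBS. The summed intensity of the 8 fibroblast markers was 448 to 614 in LPS+TGFβ1, 216 to 329 in TGFβ1, 383 to 760 in LPS and 177 to 372 in PBS, and its part in the results was not tested. CDH5, KDR and CLDN5 of the endothelial list, PF4, PPBP and ITGA2B of the platelet list, CD3D and CD3E of the lymphocyte list, and EPCAM, KRT8 and KRT19 of the epithelial list were above background on no array. Other genes of these lists were present. PECAM1 was above background on all 32 arrays, VWF on 10, GP1BA on 32, GP9 on 24, NKG7 on 32, CD79A on 18 and CDH1 on 18. Mean intensities in LPS+TGFβ1 and PBS were 3286 and 1633 for PECAM1 and 198 and 21.1 for CDH1, and for NKG7 they were 1174 in LPS and 513 in PBS. The part of these genes in the results was not tested.

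The bases upstream of the start sites of TGFBI, COL15A1 and SPP1 are shown because these 3 genes had in common that each was highest in the cells given both agents. All 8 genes were matched in RefSeq's promoter sequences (GRCh38.p14). For each gene the 250 bases before 1 start site were searched on both strands. The motifs were CAGAC (the SMAD core), TGANTCA (AP-1, with N for any base) and TATAAA (the TATA box). A κB motif was also searched, GGG then any 2 bases then TTTCC. Capitals mark the matches. The TGFBI sequence is chr5:136028738-136028987, the COL15A1 sequence chr9:98943657-98943906 and the SPP1 sequence chr4:87975464-87975713, each on the plus strand.
TGFBI: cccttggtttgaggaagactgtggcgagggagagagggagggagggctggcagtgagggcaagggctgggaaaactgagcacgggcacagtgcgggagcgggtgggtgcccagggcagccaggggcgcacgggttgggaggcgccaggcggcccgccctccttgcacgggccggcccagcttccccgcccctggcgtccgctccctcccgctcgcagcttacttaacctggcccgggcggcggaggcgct
COL15A1: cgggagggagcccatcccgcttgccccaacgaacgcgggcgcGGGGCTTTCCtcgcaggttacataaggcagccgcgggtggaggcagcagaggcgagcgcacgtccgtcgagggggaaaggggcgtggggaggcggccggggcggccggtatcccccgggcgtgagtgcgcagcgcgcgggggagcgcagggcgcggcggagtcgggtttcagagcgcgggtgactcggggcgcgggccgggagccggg
SPP1: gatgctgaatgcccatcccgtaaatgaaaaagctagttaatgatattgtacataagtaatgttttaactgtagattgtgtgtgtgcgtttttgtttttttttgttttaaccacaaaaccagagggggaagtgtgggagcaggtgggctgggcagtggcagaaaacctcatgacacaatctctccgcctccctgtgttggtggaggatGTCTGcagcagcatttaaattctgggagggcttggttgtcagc
The TGFBI window held none of the 4 motifs. The COL15A1 window held 1 κB match, GGGGCTTTCC, at position -208 from the start site. The SPP1 window held CAGAC on the minus strand, read as GTCTG on the plus strand, at position -43. THBS1 had CAGAC at -108 and LTBP1 had it on the minus strand at -85 and -61, and no motif was found for VCAN, FN1 or SPARC. LTBP1 had 3 promoter sequences, of which only the first was searched. Over all 35116 promoter windows of the same length, CAGAC occurred in 38% and the κB motif in 1.73%, against 6.57% for the AP-1 motif and 10.7% for the TATA box. A match is a description of the letters and no sign of binding.

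TGFBI, COL15A1 and SPP1 were higher in all 8 LPS+TGFβ1 arrays than in any array of the other treatments. VCAN rose with each agent alone and was lower with both than with either within each set of arrays. THBS1 rose with LPS and was below background both in PBS and with TGFβ1 alone. It was lower with LPS+TGFβ1 than with LPS within each set of arrays. Over all arrays these groups overlapped, and the call was lost in some alternative fits. FN1, SPARC and LTBP1 were near or below background on most or all arrays. Intensities are linear values from the deposited table, differences are of log2(intensity + 50) ± SE from a limma fit of all 32 arrays, and a difference passed when its Benjamini-Hochberg adjusted p over 18388 probes was under 0.05. RNA was taken from whole cultures, so a change in the number of cells that make a transcript and a change in transcript per cell cannot be told apart.

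**Figure D1:**
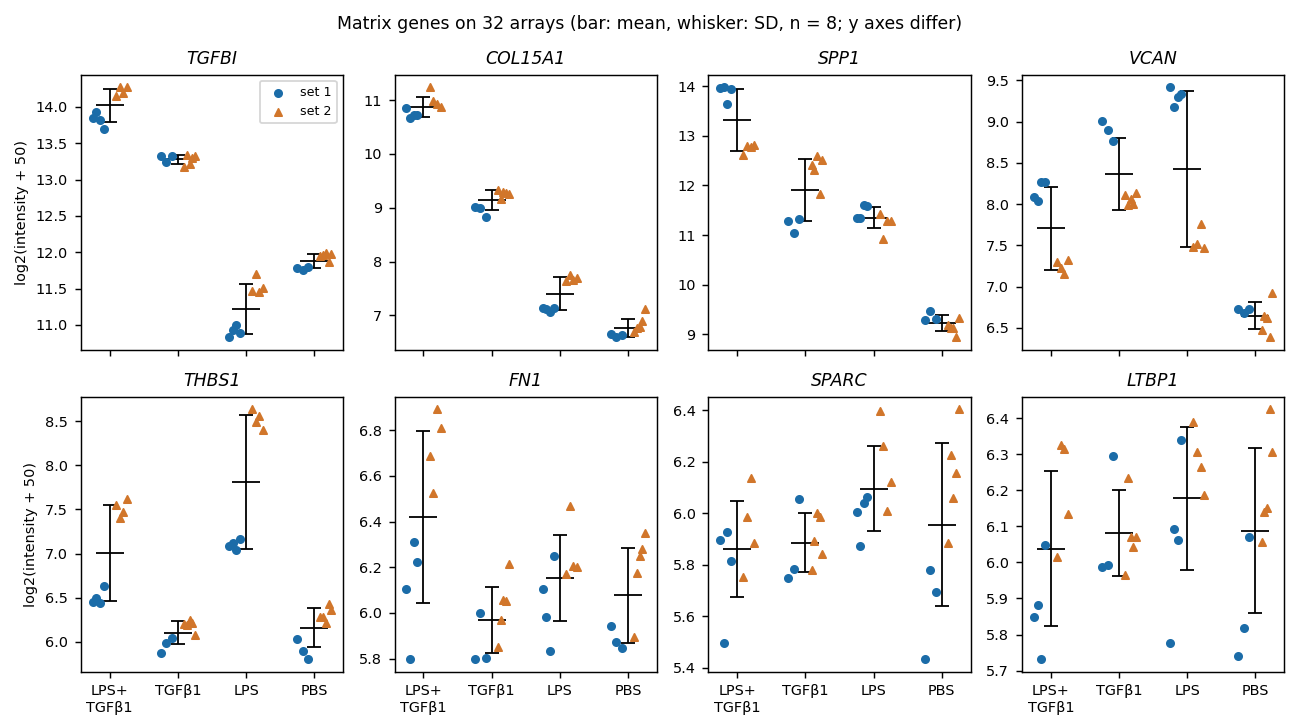
Each point is 1 array, on log2(intensity + 50), with the mean and SD of the 8 arrays of each treatment as bar and whisker. Circles are the 14 arrays of set 1 and triangles the 18 arrays of set 2, and each gene is shown by its brightest probe. The arrays part by set within treatments for most of the brighter genes, COL15A1 in all 4 treatments included, and the order of the TGFBI and COL15A1 treatments is the same in both sets.

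TGFBI encodes the TGFβ-induced protein, a secreted adhesion protein that binds collagens and integrins. Its intensity was 13184 to 19748 with a median of 16841 in LPS+TGFβ1, and 9201 to 10331 with a median of 10085 in TGFβ1. In LPS it was 1773 to 3273 with a median of 2372, and in PBS it was 3418 to 4026 with a median of 3788. The order of the levels was therefore LPS+TGFβ1, TGFβ1, PBS and LPS, and no neighbours in that order overlapped. LPS alone gave a difference of -0.66 ± 0.10 from PBS, whereas LPS+TGFβ1 gave 0.74 ± 0.10 over TGFβ1 alone. The direction of the LPS difference was thus opposite with and without TGFβ1, on each of the 4 chips. The interaction, which is the LPS difference with TGFβ1 minus that without it, was 1.40 ± 0.15 and ranged from 1.36 to 1.47 over the chips. The difference of TGFβ1 from PBS was 1.39 ± 0.10, and that of LPS+TGFβ1 from LPS was 2.80 ± 0.10, or 6.96-fold. All of these differences passed. The LPS difference was -0.87 in set 1 and -0.42 in set 2, and chip 3 and chip 2 differed in it by 0.41 ± 0.14 with an adjusted p of 0.0548. The interaction was 1.39 in set 1 and 1.37 in set 2.

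COL15A1 encodes the chain of collagen XV, a collagen with chondroitin sulphate chains that lies in and next to basement membranes and whose end can be released as a fragment that restrains vessel growth. Its intensity was 1569 to 2370 with a median of 1808 in LPS+TGFβ1, and 407 to 595 with a median of 541 in TGFβ1. In LPS it was 84.3 to 166 with a median of 121, and in PBS it was 47.0 to 89.2 with a median of 56.8. The levels stood in the order LPS+TGFβ1, TGFβ1, LPS and PBS, and only LPS and PBS overlapped. Within each set of arrays, all LPS arrays were above all PBS arrays. The difference from PBS was 4.10 ± 0.11 with both agents, 2.37 ± 0.11 with TGFβ1 and 0.63 ± 0.11 with LPS, and all 3 passed. Addition of TGFβ1 to LPS gave 3.47 ± 0.11, or 11.1-fold. Addition of LPS to TGFβ1 gave 1.73 ± 0.11, or 3.31-fold. The interaction was 1.10 ± 0.15 and passed, with 0.80 to 1.30 over the chips. The LPS difference from PBS was 0.44 ± 0.13 larger on chip 3 than on chip 2, which passed with an adjusted p of 0.0265. All 32 arrays were above background for this probe, although the PBS values were dim and the fold against them depends on the added constant of 50.

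SPP1 encodes osteopontin, a secreted phosphoprotein that binds CD44 and integrins with an αv chain and is made by macrophages. With its brighter probe, the intensity was 6228 to 16152 with a median of 9908 in LPS+TGFβ1, and 2064 to 6117 with a median of 4301 in TGFβ1. In LPS it was 1876 to 3054 with a median of 2557, and in PBS it was 442 to 660 with a median of 551. The LPS+TGFβ1 arrays were above all others, the PBS arrays were below all others, and the TGFβ1 and LPS arrays overlapped. Its other probe ranged from 4858 to 14074 in LPS+TGFβ1, 1577 to 4835 in TGFβ1, 1369 to 2443 in LPS and 315 to 461 in PBS, with the same order of medians. The brighter probe differed from PBS by 4.10 ± 0.22 with both agents, or 17.1-fold. For TGFβ1 alone the difference was 2.69 ± 0.22 and for LPS alone it was 2.13 ± 0.22. On the other probe the 3 differences from PBS were 4.22 ± 0.23, 2.80 ± 0.23 and 2.20 ± 0.23, given in the same order, and all 6 passed.

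The SPP1 response to TGFβ1 and to the pair of agents differed between the sets of arrays, while the difference between chips did not pass for LPS alone on either probe. In LPS+TGFβ1 the set 1 arrays lay at 12669 to 16152 and the set 2 arrays at 6228 to 7147. In TGFβ1 alone the order of the sets was turned round, with 2064 to 2514 in set 1 and 3585 to 6117 in set 2. The difference of LPS+TGFβ1 from TGFβ1 was 2.67 in set 1 and 0.42 in set 2 for the brighter probe, beside 1.40 ± 0.22 over all arrays. Chip 3 and chip 2 differed in it by -2.29 ± 0.21, with an adjusted p of 1.15e-06. For LPS alone against PBS the same test gave -0.11 ± 0.21 with an adjusted p of 0.773. The interaction was -0.72 ± 0.31 and did not pass (adjusted p = 0.169). It was 0.55 in set 1 and -1.67 in set 2, and the difference of chip 3 from chip 2 was -2.18 ± 0.29 with an adjusted p of 0.000605. The other SPP1 probe gave 0.48 and -1.73 in the 2 sets. In every set and on every chip, both probes averaged higher in LPS+TGFβ1 than in TGFβ1, LPS or PBS.

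VCAN encodes versican, a large chondroitin sulphate proteoglycan that binds hyaluronan and is a known product of monocytes. Its intensity was 92.0 to 259 with a median of 161 in LPS+TGFβ1, and 204 to 464 with a median of 228 in TGFβ1. In LPS it was 126 to 634 with a median of 348, and in PBS it was 33.7 to 71.1 with a median of 51.0, where 6 of 8 arrays were above background. All PBS arrays were below all others, and the other 3 treatments overlapped one another. The difference from PBS was 1.06 ± 0.27 with both agents, 1.72 ± 0.27 with TGFβ1 and 1.78 ± 0.27 with LPS, and all 3 passed. The interaction was -2.45 ± 0.38 and passed, with -3.22 to -1.84 over the chips. LPS+TGFβ1 differed from LPS by -0.73 ± 0.27 (adjusted p = 0.0602) and from TGFβ1 by -0.66 ± 0.27 (adjusted p = 0.0617), and neither passed. Within each set, however, every LPS+TGFβ1 array was below every LPS array and every TGFβ1 array. With the set of arrays as a block the 2 differences were -0.73 and -0.78, and both passed.

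Set 1 arrays had more VCAN signal than set 2 arrays in all 3 stimulated groups. In LPS+TGFβ1 the values were 212 to 259 in set 1 and 92.0 to 110 in set 2. In TGFβ1 they were 383 to 464 in set 1 and 204 to 232 in set 2, and in LPS they were 529 to 634 in set 1 and 126 to 167 in set 2. The PBS arrays overlapped between the sets. The LPS difference from PBS was 2.60 in set 1 and 0.94 in set 2, and chip 3 and chip 2 differed in it by -1.53 ± 0.15 with an adjusted p of 1.5e-06. For TGFβ1 against PBS the 2 chips differed by -0.73 ± 0.15 with an adjusted p of 0.0325.

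THBS1 encodes thrombospondin-1, a secreted glycoprotein that binds CD36 and CD47 and can release TGFβ from its latent complex. Its intensity was 36.6 to 147 with a median of 84.0 in LPS+TGFβ1, where 7 of 8 arrays were above background, and 8.54 to 26.2 in TGFβ1, where none was. In LPS it was 81.9 to 347 with a median of 191, and all 8 arrays were above background. In PBS it was 5.92 to 36.3, and no array was above background. The levels in TGFβ1 and PBS have no order, LPS and LPS+TGFβ1 overlapped, and all arrays with LPS were above all arrays without it. A fold against a group below background is given as a bound from the lowest signal above background on each array. THBS1 was at least 2.48-fold higher in LPS than in PBS, at least 1.42-fold higher in LPS+TGFβ1 than in PBS and at least 1.44-fold higher in LPS+TGFβ1 than in TGFβ1. All 3 differences passed, and TGFβ1 against PBS did not (adjusted p = 0.926).

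Addition of TGFβ1 to LPS gave a THBS1 difference of -0.81 ± 0.23, which passed with an adjusted p of 0.0107. Without chip 3 the value was -0.71 and the adjusted p was 0.0746, and with only these groups in the fit it was 0.066. Within each set, all LPS+TGFβ1 arrays were below all LPS arrays. Unlike VCAN, THBS1 was brighter in set 2, with 119 to 147 against 36.6 to 49.1 in set 1 for LPS+TGFβ1, and 288 to 347 against 81.9 to 93.4 in set 1 for LPS. The change with TGFβ1 added to LPS differed between chip 3 and chip 2 by -0.47 ± 0.13, with an adjusted p of 0.028. Chip differences against PBS or TGFβ1 are not read for THBS1, since its signal there was below background. The interaction was -0.75 ± 0.32 and did not pass (adjusted p = 0.179), whereas with the set of arrays as a block the same value passed (adjusted p = 0.00349). It rests on those same groups below background and is no measure of size.

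FN1 encodes fibronectin, the glycoprotein that links cells to collagen through integrins such as α5β1. Its brightest probe was above background on 3 of 32 arrays, all of them LPS+TGFβ1. The intensity was 5.61 to 68.8 in LPS+TGFβ1, 5.63 to 24.2 in TGFβ1, 7.06 to 38.5 in LPS and 7.59 to 31.6 in PBS, and the groups overlapped. The fitted differences of LPS+TGFβ1 were 0.34 ± 0.12 from PBS and 0.45 ± 0.12 from TGFβ1. They are given with no test, since the probe passed the filter on low values only through the LPS+TGFβ1 arrays: its mean log2 was 6.42 there and 5.97, 6.15 and 6.08 in TGFβ1, LPS and PBS. No fold bound above 1 could be given for either. In set 1 alone the differences were 0.22 from PBS and 0.24 from TGFβ1. A second FN1 probe was above background on 4 arrays, also all LPS+TGFβ1, where it ranged from -1.44 to 65.8, and the remaining FN1 probe on none. In both probes with signal, the set 2 arrays of LPS+TGFβ1 were brighter, at 42.1 to 68.8 against 5.61 to 29.4 in set 1 for the first.

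SPARC, a collagen-binding matricellular glycoprotein, had 1 probe, which was above background on no array and reached at most 34.7. LTBP1, which anchors latent TGFβ in the matrix, had 2 probes above background on no array, with highest values of 35.9 and 30.8. No level or fold is read for these genes, and fitted values of the tested LTBP1 probe, where plotted or listed, are differences between signals below background. A transcript below background on these arrays is not shown to be absent.

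Of the 12 probes, 8 passed the filter on low values, which needed a mean log2 of 6.09. The LTBP1 probe that was tested lay just inside it at 6.10 and the brighter of the untested FN1 probes just outside it at 6.08. The filter used the mean over all 32 arrays, so a probe with signal in a single group could pass through that group, as FN1 did, or fail, as its second probe did. The counts below describe only the 8 tested probes and are not counts of genes, since SPP1 enters them with both of its probes. FN1 is among those counted as higher in LPS+TGFβ1 than in PBS and in TGFβ1. For LPS+TGFβ1 against PBS, 7 were higher and 0 lower, where 39.9% of all 18388 probes were called, 18% higher and 21.9% lower. For TGFβ1 against PBS, 5 were higher and 0 lower, beside 13.2% of all probes, 7.54% higher and 5.7% lower. For LPS against PBS, 5 were higher and 1 lower, beside 41.9%, with 20.9% higher and 21% lower. For LPS+TGFβ1 against LPS, 4 were higher and 1 lower, beside 18.3%, with 8.19% higher and 10.1% lower. For LPS+TGFβ1 against TGFβ1, 6 were higher and 0 lower, beside 31.5%, with 14.9% higher and 16.5% lower. In the interaction 2 were higher and 1 lower, beside 7.28%, with 2.82% higher and 4.46% lower. The groups did not overlap for 6, 5 and 5 of the 8 probes in LPS+TGFβ1, TGFβ1 and LPS against PBS, where 17.1%, 5.9% and 18.6% of all probes did not. They did not overlap for 4 in LPS+TGFβ1 against LPS and for 5 against TGFβ1, beside 5.43% and 13.8%. The 3 comparisons with PBS share its 8 arrays. Chip 3 and chip 2 differed for 4 of the 8 probes in LPS+TGFβ1 against PBS, for 3 in TGFβ1 against PBS and for 3 in LPS against PBS, where 14.8%, 0.604% and 19.4% of all probes differed. They differed for 3 probes in LPS+TGFβ1 against LPS, for 4 against TGFβ1 and for 3 in the interaction, beside 8.01%, 11.8% and 1.81%.

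**Figure D2:**
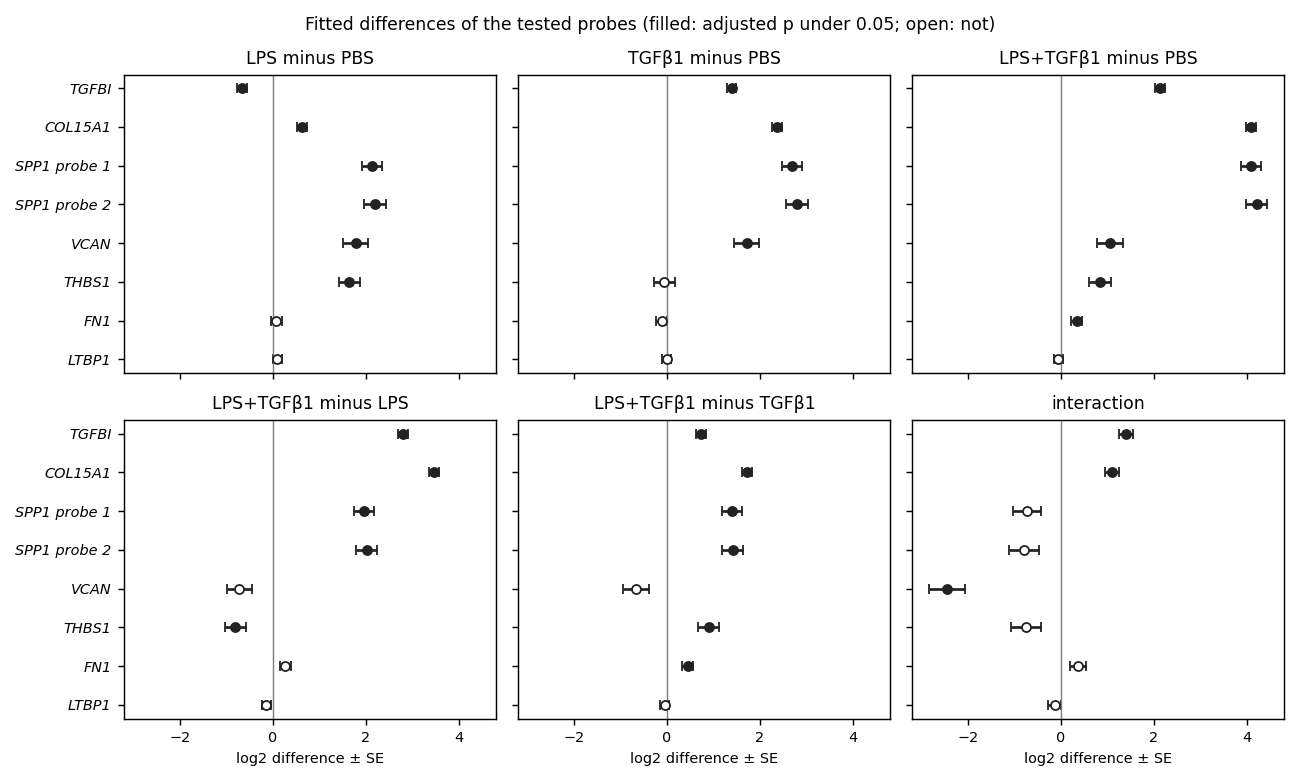
Points are fitted log2 differences with their standard errors for the 8 tested probes in the 6 comparisons, filled where the adjusted p was under 0.05. SPP1 probe 1 is the brighter. The FN1 points for LPS+TGFβ1 against PBS and against TGFβ1 are filled but are not read as tests. That probe passed the filter on low values only through the LPS+TGFβ1 arrays. TGFBI lies left of 0 for LPS against PBS (-0.66) and right of 0 for LPS+TGFβ1 against TGFβ1 (0.74), and VCAN has the lowest interaction (-2.45).

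**Figure D3:**
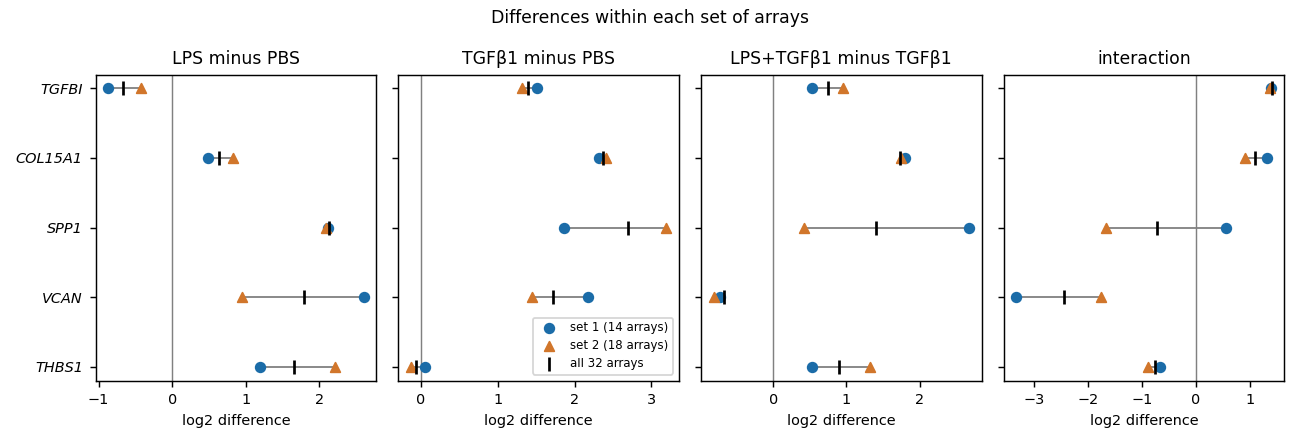
Log2 differences of 5 genes within set 1 (circles, 14 arrays) and set 2 (triangles, 18 arrays), with a tick for all 32 arrays. The 2 sets nearly coincide for the TGFBI interaction (1.39 and 1.37) and lie on either side of 0 for the SPP1 interaction (0.55 and -1.67).

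The genes whose 3 differences from PBS lay nearest to those of a member were found among 9602 genes above background in at least 1 group, by the Euclidean distance in log2 units over the 3 values. For TGFBI they were MGAT4A at 0.52 and NTSR1 at 0.71, and for COL15A1 they were ASPH at 0.67 and ACKR3 at 0.75. For SPP1 they were ALOX5AP at 0.53 and CLEC5A at 0.65, and for VCAN they were TMEM200A at 0.62 and TMEM121B at 0.76. THBS1 had much nearer neighbours, EHD4 at 0.12 and RPS6KA2 at 0.14. Its PBS and TGFβ1 arrays were below background, so its differences from PBS depend on the added constant and nothing is read from this nearness. All the distances are likenesses of pattern over 4 treatments only.

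Other genes of the matrix were taken from 8 lists. Their counts stand beside the shares of all 18388 probes, which were 8.19% higher and 10.1% lower for TGFβ1 added to LPS, 7.54% and 5.7% for TGFβ1 alone, and 20.9% and 21% for LPS alone. Of the 39 collagen genes, 36 were measured and 25 tested, and 11 of these were above background on all arrays of at least 1 treatment. With LPS+TGFβ1 against LPS, 3 rose and 3 fell, with TGFβ1 against PBS 3 rose and 1 fell, and with LPS against PBS 5 rose and 5 fell, which for LPS is near the shares of all probes. COL8A1, a short-chain collagen of vessel walls and of the corneal basement membrane, averaged 316 ± 156 in LPS+TGFβ1, 61.5 ± 6.68 in TGFβ1, 686 ± 239 in LPS and 72.9 ± 10.2 in PBS (SD, n = 8 each). It rose with LPS by 2.52 ± 0.19 and was lower when TGFβ1 was added to LPS, by -1.06 ± 0.19. Its partner chain COL8A2 went the other way, at 627 ± 34 in LPS+TGFβ1, 1343 ± 224 in TGFβ1, 216 ± 31 in LPS and 398 ± 116 in PBS. It rose with TGFβ1 by 1.67 ± 0.12 and fell with LPS by 0.71 ± 0.12. COL4A1, a main chain of basement membranes, fell with LPS by 1.32 ± 0.10. The median difference of the collagens was -0.08 for LPS+TGFβ1 against LPS, -0.04 for TGFβ1 and 0.10 for LPS against PBS, beside -0.07, -0.04 and 0.05 over all probes.

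Among 24 tested proteoglycans, 5 rose and 3 fell with TGFβ1 added to LPS, 4 rose and 0 fell with TGFβ1 alone, and 6 rose and 3 fell with LPS, beside 8.19% and 10.1%, 7.54% and 5.7%, and 20.9% and 21% of all probes. Of the 24, 13 were above background. SDC4, a cell-surface heparan sulphate proteoglycan, rose with LPS by 1.55 ± 0.07, with means of 383 ± 35 in LPS and 97.8 ± 13.7 in PBS. DCN, decorin, which binds collagen fibrils and TGFβ and is also on the fibroblast list, was above background on all LPS and LPS+TGFβ1 arrays and on none of TGFβ1 or PBS. It was at least 2.56-fold higher in LPS than in PBS. SPOCK1, testican-1, rose with TGFβ1 by 1.28 ± 0.09 and with TGFβ1 added to LPS by 0.92 ± 0.09. SRGN, serglycin, the proteoglycan of secretory granules in blood cells, averaged 23924 ± 5451 in LPS+TGFβ1 and 28961 ± 4164 in LPS, a fall of 0.29 ± 0.10.

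Of 22 tested matricellular and adhesive glycoproteins, 3 rose and 5 fell with TGFβ1 added to LPS, 1 rose and 4 fell with TGFβ1 alone, and 4 rose and 7 fell with LPS. The shares of all probes were 8.19% and 10.1%, 7.54% and 5.7%, and 20.9% and 21%, and 13 of the 22 were above background. CCN2, connective tissue growth factor, a standard target of TGFβ in fibroblasts, averaged 135 ± 73 in TGFβ1 and 302 ± 166 in PBS and fell by 0.90 ± 0.21. THBS4, a thrombospondin of tendon and muscle, fell with LPS by 1.81 ± 0.17 and with TGFβ1 by 0.64 ± 0.17, so that its differences had the opposite direction to those of THBS1 with LPS. EMILIN2, an elastic fibre glycoprotein, fell by 0.61 ± 0.06 with TGFβ1 added to LPS. FGL2, a fibrinogen-like protein of macrophages, rose with LPS by 2.48 ± 0.41, and the set 1 and set 2 arrays taken alone gave 0.99 and 3.85.

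Of 20 tested genes for enzymes that modify and crosslink collagen, 9 rose and 1 fell with TGFβ1 added to LPS, where 8.19% and 10.1% of all probes did. With TGFβ1 alone 4 rose and 1 fell, beside 7.54% and 5.7%, and with LPS 4 rose and 7 fell, beside 20.9% and 21%. The gene that fell with TGFβ1 added to LPS, TGM3, was above background on no array, and 14 of the 20 were above background in at least 1 treatment. PLOD2, a lysyl hydroxylase of collagen telopeptides, rose by 0.98 ± 0.23 with TGFβ1 added to LPS, and P4HA1, a prolyl hydroxylase subunit, rose by 0.62 ± 0.12. F13A1, the factor XIII subunit that crosslinks fibrin and fibronectin, was the list's largest fall with LPS, by 2.49 ± 0.17, and averaged 56.0 ± 34.7 in LPS and 526 ± 114 in PBS. It also fell with TGFβ1 alone by 1.23 ± 0.17. The list's median for TGFβ1 added to LPS was 0.12, beside -0.07 over all probes.

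In the list of fibrillins, elastin and latent TGFβ carriers, 9 genes were tested. With TGFβ1 added to LPS 2 rose and 2 fell, beside 8.19% and 10.1% of all probes, with TGFβ1 alone 2 rose and 0 fell, beside 7.54% and 5.7%, and with LPS 1 rose and 2 fell, beside 20.9% and 21%. The 2 that fell with TGFβ1 added to LPS were MFAP2, above background on no array, and LRRC32, above background on 3 LPS arrays only. LRRC32 was also the gene that rose with LPS. It averaged 50.9 in LPS, 16.4 in LPS+TGFβ1, 8.61 in TGFβ1 and 15.2 in PBS. Its probe passed the filter on low values through the LPS arrays, so nothing is read from either of its calls. FURIN, the protease that cleaves the TGFβ precursor, rose by 0.56 ± 0.14 with TGFβ1 added to LPS and by 0.44 ± 0.14 with TGFβ1 alone. LTBP3, a relative of LTBP1, was above background on all 8 arrays of each treatment and fell with LPS by 0.19 ± 0.06. Of 6 tested laminin and basement membrane genes, LAMB3, a laminin chain, rose with TGFβ1 alone by 0.59 ± 0.11, and NID1, nidogen-1, was lower by -1.02 ± 0.14 with TGFβ1 added to LPS. Of 10 genes for hyaluronan and glycosaminoglycan synthesis and binding, 1 rose and 1 fell with TGFβ1 added to LPS, which is near the 8.19% and 10.1% of all probes. With TGFβ1 alone 0 rose and 2 fell, beside 7.54% and 5.7%, and with LPS 1 rose and 3 fell, beside 20.9% and 21%.

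Of 26 tested receptors through which cells hold on to these proteins, 7 rose and 5 fell with TGFβ1 added to LPS, beside 8.19% and 10.1% of all probes, and 14 were not called. With TGFβ1 alone 6 rose and 3 fell, beside 7.54% and 5.7%, and with LPS 11 rose and 2 fell, beside 20.9% and 21%. The medians in these comparisons were -0.06, 0.09 and 0.07, beside -0.07, -0.04 and 0.05 over all probes. ITGAV, the αv integrin chain that binds osteopontin, fibronectin and the TGFβ-induced protein, averaged 2092 ± 162 in LPS+TGFβ1, 785 ± 111 in TGFβ1, 324 ± 40 in LPS and 317 ± 91 in PBS. It rose with TGFβ1 by 1.21 ± 0.10 and with TGFβ1 added to LPS by 2.52 ± 0.10, whereas LPS alone gave 0.05 ± 0.10 (adjusted p = 0.71). Its interaction was 1.31 ± 0.15 and passed, with 1.15 in set 1 and 1.34 in set 2. ITGA5, the fibronectin receptor chain, averaged 2862 ± 442 in LPS+TGFβ1, 3092 ± 628 in TGFβ1, 1306 ± 104 in LPS and 1084 ± 87 in PBS. It rose with TGFβ1 by 1.45 ± 0.10, and FN1 itself was below background on all TGFβ1 arrays. ITGA6, a laminin receptor chain, was at least 2.06-fold higher in TGFβ1 than in PBS, where no array was above background.

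CD44, the receptor for hyaluronan and osteopontin, rose with LPS by 1.28 ± 0.11 and fell with TGFβ1 by 0.46 ± 0.11. Its mean was 10418 ± 2346 in LPS+TGFβ1, 4161 ± 603 in TGFβ1, 13985 ± 1599 in LPS and 5729 ± 684 in PBS. CD36, which binds thrombospondin-1, rose with LPS by 2.32 ± 0.14 and with TGFβ1 by 0.52 ± 0.14, and with TGFβ1 added to LPS the difference was 0.04 ± 0.14 (adjusted p = 0.849). ITGA4, which binds an alternatively spliced part of fibronectin, fell with TGFβ1 by 0.81 ± 0.16.

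**Figure D4:**
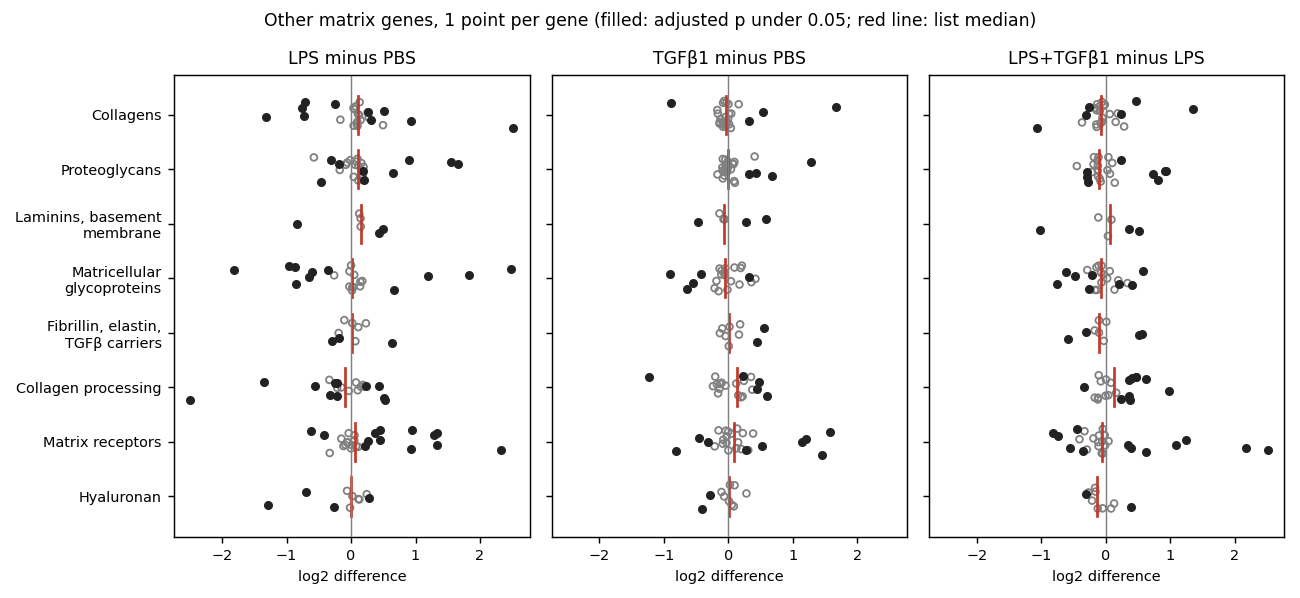
Each point is the log2 difference of 1 tested gene of a list in 3 comparisons, filled where the adjusted p was under 0.05, with the list's median as a red line. The filled LRRC32 points for LPS and for TGFβ1 added to LPS are not read as results. The medians lie within 0.15 of 0, and the genes farthest to the right are COL8A1 with LPS (2.52), COL8A2 with TGFβ1 (1.67) and ITGAV with TGFβ1 added to LPS (2.52).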

How the data were processed

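The authors deposited linear intensity values, 1 column for each of the 32 arrays, in the series' value table. Per the submitters' processing notes BeadStudio 3.2 was among the tools, with no role stated. How the authors corrected for background and normalized is not stated in the labels or headers used here. Column medians were 34.5 to 59.3, upper quartiles 345 to 381 and the lowest value -35.4, so centring and scale factor stay unknown. A further table, of non-normalized signal, has 64 columns whose names match no sample label, so they were not used and the planned normexp correction was not run. Groups and replicate numbers came from the titles.

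Values were set to log2(intensity + 50), which understates the change of dim genes. Probes in the lowest 25% of mean log2 were left out, which kept 18388 of 24518. Symbols came from the platform annotation (21826 probes with 1 symbol, 2692 with none). Background on an array was the mode of the dim values plus 3 SDs of the values left of it, at 24.7 to 55.7. The test was limma's, version 3.58.1 under R 4.3.3, with lmFit and eBayes on 4 group means and no covariate. It was two-sided, with Benjamini-Hochberg adjustment over all probes kept. On simulated data for LPS against PBS it recovered 98% of changes of 1 log2 unit and 100% of changes of 2, with 19 false calls. The simulated noise was independent between arrays and held no sets or chips. It therefore cannot show how the test behaves under the 2 sets found here. The tests of chip 3 against chip 2 used the arrays of those chips only. The sets were found in the data they are applied to, which can make p-values too small where a fit uses them. Precision is limited by the number of arrays.

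The members, gene lists and tests were chosen with earlier results of these data known. All probes of the members were described. From each of the 8 other matrix lists up to 2 rises and 2 falls per comparison could be named, by size among the brightest probe of each gene, and some receptors and TGFβ activation genes always could. Marker lists covered monocytic, fibroblast, endothelial, platelet, lymphocyte and epithelial genes. Other offsets, filters, scalings and blocks, and leaving out replicates, chips or groups, were tried as alternatives; the fits within each set and the chip comparison were added after the 2 sets of arrays had been seen.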

Additional observations from a re-analysis of the deposited data

Results flagged for a closer look

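The tests of chip 3 against chip 2, which hold all 4 treatments and 2 arrays of each, covered the 8 tested probes in 6 comparisons. They found 20 member values that differed between the chips, with each SPP1 probe counted on its own. Of all 18388 probes, 19.4% differed for LPS, 0.604% for TGFβ1 and 14.8% for LPS+TGFβ1, each against PBS. The shares were 8.01% for LPS+TGFβ1 against LPS, 11.8% against TGFβ1 and 1.81% for the interaction. The values are log2 differences on chip 3 minus those on chip 2, and the causes were not tested.

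SPP1 differed between the chips in most comparisons. For its brighter probe the value was 1.53 for TGFβ1 against PBS, -0.76 for LPS+TGFβ1 against PBS, -2.29 for LPS+TGFβ1 against TGFβ1 and -2.18 for the interaction, with adjusted p from 1.15e-06 to 0.0188. For its other probe the same 4 values were 1.40, -0.96, -2.36 and -1.95, and LPS+TGFβ1 against LPS gave -0.56 (adjusted p = 0.0492).

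VCAN had smaller differences from PBS on chip 3, by -1.53 for LPS, -0.73 for TGFβ1 and -0.89 for LPS+TGFβ1, each against PBS. LPS+TGFβ1 against LPS gave 0.64 and the interaction 1.37.

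THBS1 gave -0.47 for LPS+TGFβ1 against LPS. It also gave 1.05 for LPS and 0.57 for LPS+TGFβ1 against PBS and 0.77 for LPS+TGFβ1 against TGFβ1, where the PBS and TGFβ1 arrays were below background, so that the size of these values depends on the added constant. COL15A1 gave 0.44 for LPS against PBS. LTBP1 gave 0.51 for LPS+TGFβ1 against TGFβ1 (adjusted p = 0.0496), from a probe below background on all arrays.

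A single array stood apart within its group. LPS replicate 5 had the lowest SPP1 intensity of the LPS arrays on the brighter probe, 1876, and the next lowest was 2432. On the log2 scale, on which the test was made, that gap was 0.531 of the group's range. It was 1 of 48 groups of arrays tested, and chance alone would mark about 1 in 20.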

How the results depend on the processing

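The counts of members called in the 5 comparisons of groups stayed within 1.5 times their value under every alternative run. The interaction count, 3 of 8 probes, was 5 with the replicate block, with the set block, without chip 2 and in set 1 alone, and 7 in set 2 alone. The main fit did not pair the arrays by replicate number, and whether the numbers pair them was not settled. Residuals of same-numbered arrays correlated at 0.126 or more for every number except 7, where the lowest was -0.203. The arrays of number 7 lay in both sets, and those of every other number lay in a single set. Pairing by number and likeness by set therefore cannot be told apart in these correlations. Of the 32 arrays, 15 were closest to their own number. With the replicate block, both VCAN differences of LPS+TGFβ1, from LPS and from TGFβ1, passed (adjusted p = 0.00711 and 0.00833). Over all probes the interaction had 2342 calls with this block, beside 1339 without it. For the tested members other than FN1 and LTBP1, 830 single values kept direction and side of the threshold, 21 gained a call, 2 lost one and 5 reversed. These include the THBS1 values, of which TGFβ1 against PBS compares signals below background. The reversed ones were THBS1 for TGFβ1 against PBS (0.0045 with quantile normalization, 0.0065 without chip 4, 0.0571 in set 1) and the SPP1 interaction in set 1 (0.55, adjusted p = 0.0287, and 0.48, adjusted p = 0.0502). Without chip 2 the SPP1 interaction was -1.15 and -1.19 and passed on both probes. For FN1 and LTBP1, near or below background, 239 were kept, 11 gained, 7 lost and 17 reversed, all of the last in LTBP1. For TGFβ1 against PBS, LTBP1 was 0.0139 at an offset of 16, 0.0478 with quantile normalization, 0.0034 with a common median, -0.0423 to 0.0478 when leaving out 1 replicate number, 0.0952 without chip 4 and 0.216 in set 1. For LPS+TGFβ1 against PBS it was 0.0224 with quantile normalization, 0.0243 without chip 4 and 0.0023 in set 1, and against LPS it was 0.0069 with quantile normalization. Against TGFβ1 it was -0.0858 to 0.0297 when leaving out 1 replicate number, 0.0531 without chip 2 and 0.121 in set 2, where the interaction was 0.0498. Over all probes the interaction had 1339 calls, 2559 with the set block, 3259 in set 2, and 559 without chip 3. Leaving out the lowest 50% of probes gave no value for FN1 and LTBP1. Signal near background limits FN1, SPARC, LTBP1 and the THBS1 levels without LPS.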

Other observations

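Some other genes of the matrix lists, already included in the counts above, also differed between the 4 treatments. COL24A1, a fibrillar collagen, averaged 86.1 in TGFβ1 and 202 in PBS and fell with TGFβ1 by 0.89 ± 0.23, whereas its LPS difference did not pass, at 0.50 ± 0.23 (adjusted p = 0.0865). That LPS value was 1.28 within set 1 and -0.26 within set 2. CRIM1, a transmembrane protein that binds bone morphogenetic proteins, averaged 143 in LPS+TGFβ1 and 248 in LPS. It rose with LPS by 1.83 ± 0.17 and was lower when TGFβ1 was added to LPS, at -0.75 ± 0.17, with -0.19 in set 1 and -1.32 in set 2. CSPG4, a transmembrane proteoglycan, rose by 0.93 ± 0.19 with TGFβ1 added to LPS. MFGE8, a bridge between apoptotic cells and αv integrins, rose by 0.58 ± 0.16 in the same comparison.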
